A study of Homo sapiens with 24 samples.

Results

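Metallothioneins and zinc export were examined through 7 genes of the 43037 measured: the metallothioneins MT2A, MT1E, MT1F, MT1G, MT1M, and MT1X, and the zinc exporter SLC30A1. They were chosen by symbol, as rows of the CPM table whose Ensembl gene identifiers belong to these symbols, and each matched 1 row. CAGE-Seq, which reads 1 tag from the capped 5′ end of each captured transcript, was performed on established human glioblastoma lines, namely DBTRG-05MG, T98G, U251MG, and U87MG. The “Vec” variant of each line received Puro-Blank Lentivirus, and the “WWOX” variant received pLenti-GIII-CMV-GFP-2A-Puro, so that the tumor suppressor WWOX was driven by the CMV promoter. All 8 groups were transduced and then selected with puromycin, and each had 3 libraries, 24 in all. The paper describes this selection as clonal, so within a line WWOX and differences between the selected cells cannot be told apart. The name of the WWOX vector lists a GFP cassette and that of the control does not, so GFP and WWOX cannot be told apart. T98G was grown in MEM, DBTRG-05MG in RPMI 1640, and U87MG and U251MG in EMEM. Line and medium therefore cannot be told apart, except between U87MG and U251MG, which shared a medium. The labels name the 3 libraries of a variant as biological replicates and name no separate transductions, so the p-values below cover the spread between these libraries.

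Metallothioneins are small cysteine-rich proteins that hold zinc and copper in clusters of thiolate ligands and buffer the free metal in the cell. Their genes are switched on by the zinc-sensing factor MTF1, which binds metal response elements in their promoters, and by glucocorticoids and oxidants. SLC30A1, also called ZnT1, moves zinc out of the cell across the plasma membrane and is another target of MTF1. In brain, the MT1 and MT2 proteins are known mainly from astrocytes.

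The metallothionein members lie in a single cluster on chromosome 16 (hg38, GENCODE 44), from position 56608584 at the start of MT2A to 56684196 at the end of MT1X, a span of 75613 bases with 20 annotated genes. Within it, MT1G runs from 56666730 to 56668065 on the minus strand, and MT1E (56625475 to 56627112), MT1M (56632659 to 56633981), and MT1F (56657731 to 56660698) are on the plus strand. SLC30A1 lies on chromosome 1, from 211571568 to 211579161 on the minus strand. The promoters show what the members share in sequence, and RefSeq (GRCh38.p14) held those of MT2A, MT1X, and SLC30A1, while those of MT1E, MT1F, MT1G, and MT1M were not used here. Each sequence below is the 250 bases before the RefSeq start, 5′ to 3′ on the strand of the gene, at chr16:56608334-56608583 (plus strand) for MT2A, chr16:56682220-56682469 (plus strand) for MT1X, and chr1:211579162-211579411 (minus strand) for SLC30A1. Capitals mark the core of the metal response element, TGCACNC or TGCGCNC, on either strand.
MT2A: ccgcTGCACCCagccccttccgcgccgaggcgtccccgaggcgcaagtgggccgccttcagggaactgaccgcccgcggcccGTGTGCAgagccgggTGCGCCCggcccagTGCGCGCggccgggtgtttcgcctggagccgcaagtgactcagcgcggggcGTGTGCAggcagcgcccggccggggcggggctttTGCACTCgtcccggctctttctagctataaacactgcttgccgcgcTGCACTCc
MT1X: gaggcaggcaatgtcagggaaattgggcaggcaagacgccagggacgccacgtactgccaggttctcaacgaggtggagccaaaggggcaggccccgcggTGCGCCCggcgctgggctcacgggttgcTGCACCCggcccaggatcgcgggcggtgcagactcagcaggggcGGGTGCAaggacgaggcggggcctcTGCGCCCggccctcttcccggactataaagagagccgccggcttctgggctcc
SLC30A1: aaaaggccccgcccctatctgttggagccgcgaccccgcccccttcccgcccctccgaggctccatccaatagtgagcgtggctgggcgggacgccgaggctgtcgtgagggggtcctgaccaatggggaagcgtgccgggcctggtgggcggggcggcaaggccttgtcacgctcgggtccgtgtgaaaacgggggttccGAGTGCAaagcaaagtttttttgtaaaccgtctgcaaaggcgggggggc

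The core was found 7 times before MT2A, 4 times before MT1X, and 1 time before SLC30A1, and no matches overlapped. Of 35116 RefSeq promoters of the same length, 24.8% held at least 1 match, 0.370% at least 4, and 0.0313% at least 7. A match is a description of the letters and no measured binding site. The TATA box TATAAA began 29 bases before the start of MT2A and 30 bases before that of MT1X, and was not found for SLC30A1, while 7.33% of the promoters held it in the window from 250 bases before to 50 bases after the start. In the 250 bases before the start, the metal response element core was found 8 times before MT1H, which was at most 0.0679 CPM. It was found 3 times each before MT1B and MT4, which were at 0 CPM in every library.

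**Figure D1:**
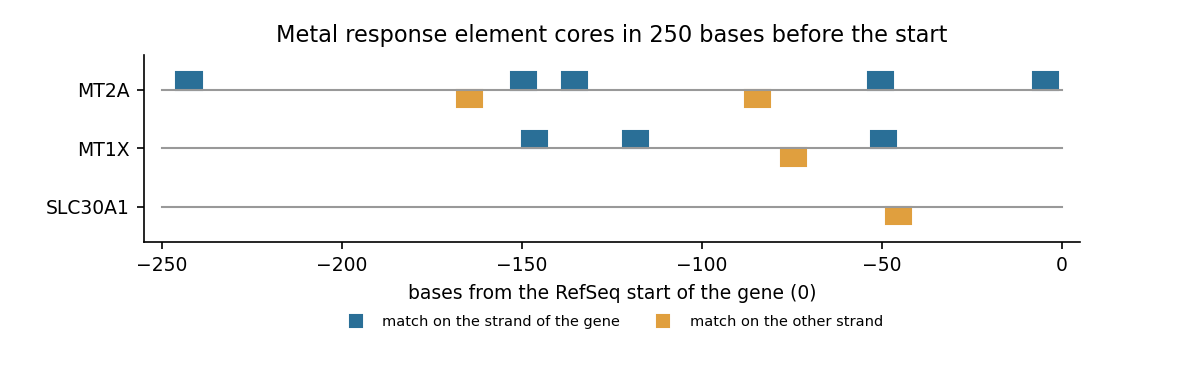
Positions of the metal response element core (TGCACNC or TGCGCNC) in the 250 bases before the RefSeq start of MT2A, MT1X, and SLC30A1; the horizontal axis is the distance from the start in bases, and boxes above and below each line are matches on the strand of the gene and on the other strand. MT2A holds 7 matches, MT1X 4, and SLC30A1 1.

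The libraries held 10756072 to 16953689 tags on genes, so 3 tags, the limit that a count of 0 allows, correspond to 0.177 to 0.279 CPM, counting error only. Levels are CPM as deposited, and since each transcript gives 1 tag, no scaling to length is needed to set different genes side by side. Such comparisons still depend on how tags were assigned to each gene, which the sources used here do not fully give. The row of WWOX was at 61.0 to 66.0 CPM in “WWOX” and 33.9 to 40.1 in “Vec” of U87MG, and at 28.0 to 31.97 and 20.4 to 22.2 CPM in DBTRG-05MG, and did not pass the limma test in any line (lowest adjusted p = 0.137). In T98G the ranges overlapped, and in U251MG the library labelled “WWOX” replicate 2 held 17.4 CPM, below every “Vec” library (31.4 to 36.8). Transcripts from the vector start in vector sequence, so this row is no direct check of the transgene. The astrocyte marker GFAP was at 114 CPM in “WWOX” replicate 1 of U251MG and at 2035 to 3226 CPM in the other libraries of that line. In the other lines GFAP was at most 11.6 CPM. S100B was at 31.8 to 343 CPM in U251MG, lowest in the same library, and at most 15.1 CPM elsewhere. SOX2 was at most 0.562 CPM and NES at most 3.56 CPM in U87MG and T98G. In U251MG, SOX2 was at 31.0 to 268 CPM and NES at 40.1 to 129 CPM. In DBTRG-05MG, SOX2 was at 43.9 to 90.5 CPM and NES at 10.3 to 60.5 CPM. VIM, with the antisense gene VIM-AS1 over its first base, was at 13.5 to 71.7 CPM. CD44 was at least 678 CPM in every library, and the immune and endothelial markers stayed at most 0.232 CPM. Of the neuron markers, RBFOX3 was at most 0.203 CPM and SNAP25 at 0.201 to 32.5 CPM.

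MT2A was by far the highest of the 7 genes, in every library. In U87MG it was at 13042, 18750.5, and 13838 CPM in “Vec” and at 10414, 14411, and 12482 CPM in “WWOX”. In T98G it was at 7491, 3065, and 5763 CPM in “Vec” and at 1282, 2139, and 1329 CPM in “WWOX”. The T98G groups did not overlap, and the nearest libraries were “Vec” replicate 2 and “WWOX” replicate 2. In U251MG the values were 4358, 7393, and 5619 CPM in “Vec” and 3037, 5709, and 6346 CPM in “WWOX”. In DBTRG-05MG they were 3411, 2133, and 3748 CPM in “Vec” and 1205, 2714, and 2471 CPM in “WWOX”. In both of these lines the groups overlapped, with “WWOX” replicate 1 lowest. Among all genes of a library, MT2A ranked 2 or 3 in every library of U87MG, 6 to 27 in those of U251MG, and 16 to 94 in those of DBTRG-05MG. In T98G it ranked 9, 24, and 14 in “Vec” and 110, 51, and 111 in “WWOX”. Of the tags of the 6 metallothionein members, MT2A gave 78.5% to 97.3% in a library. This sum leaves out other metallothionein genes and holds at most 0.679 CPM of MT1X, whose tags are taken up below.

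MT1E, a metallothionein of the MT1 group, was next in level by mean, except in T98G, where MT1F was slightly above it. In U87MG it was at 887, 574, and 815 CPM in “Vec” and at 749, 613, and 400.1 CPM in “WWOX”. In T98G it was at 99.3, 86.8, and 70.8 CPM in “Vec” and at 27.2, 39.9, and 15.9 CPM in “WWOX”. All 3 “WWOX” libraries of T98G lay below all 3 “Vec” libraries, with a wide gap. In U251MG the values were 896, 1009, and 811 CPM in “Vec” and 719.9, 405, and 1034 CPM in “WWOX”, and in DBTRG-05MG 259, 165, and 256 CPM in “Vec” and 104, 170.4, and 160.2 CPM in “WWOX”. On the CPM scale both of these lines overlapped, and after scaling of the libraries every “WWOX” library of DBTRG-05MG lay below every “Vec” library. MT1E gave 13.6% ± 2.64 (SD, n = 3) of the tags of the metallothionein members in “Vec” of U251MG and 1.73% ± 0.854 in “Vec” of T98G.

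MT1F had its groups apart in opposite directions in U87MG and T98G. In U87MG it was at 173, 204, and 93.9 CPM in “Vec” and at 310.7, 335, and 293 CPM in “WWOX”. In T98G it was at 111, 45.7, and 124 CPM in “Vec” and at 37.1, 33.0, and 27.0 CPM in “WWOX”. All “WWOX” libraries were above all “Vec” libraries in U87MG and below them in T98G. In U251MG the values were 143, 138, and 161 CPM in “Vec” and 112, 101, and 132 CPM in “WWOX”, and in DBTRG-05MG 91.5, 54.8, and 75.9 CPM in “Vec” and 66.9, 124, and 125 CPM in “WWOX”. The U251MG groups did not overlap in CPM and did after scaling, and the DBTRG-05MG groups overlapped on both scales.

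MT1G and MT1M were low and were found in some of the lines. MT1G was at 10.2, 22.8, and 1.33 CPM in “Vec” and at 1.53, 0.339, and 0.339 CPM in “WWOX” of U87MG. In DBTRG-05MG it was at 30.05, 7.40, and 24.9 CPM in “Vec” and at 6.72, 32.1, and 29.5 CPM in “WWOX”. The groups overlapped in both lines, in U87MG since “WWOX” replicate 1 lay above “Vec” replicate 3. In T98G and U251MG, MT1G had 0 tags in 9 of 12 libraries, and its highest level was 0.376 CPM. MT1M was at 9.16, 7.19, and 2.88 CPM in “Vec” and at 4.16, 5.29, and 6.69 CPM in “WWOX” of U87MG. In DBTRG-05MG it was at 3.21, 2.32, and 2.31 CPM in “Vec” and at 0.826, 1.94, and 2.33 CPM in “WWOX”. MT1M was highest in U87MG, and its “Vec” and “WWOX” libraries overlapped in both lines. In T98G it had 8, 12, and 0 tags in “Vec” and 0 tags in each “WWOX” library, and in U251MG 2 tags were found in 1 library.

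MT1X was at 0 to 0.679 CPM over the 24 libraries and was not tested. Its first base at position 56682470 is also the first base of a long noncoding gene on the same strand, ENSG00000259827, and the sources used here do not state how tags at a shared base were assigned. Protein-coding genes with another gene on the same strand over their first base stayed under 1 CPM in every library in 51.3% of 1683 cases, compared to 35.7% of 3157 genes with another gene on the opposite strand alone, and 28.6% of 14584 genes with none on either strand. How the low value of MT1X depends on this overlap was not tested. No other member has another annotated gene over its first base. The first 75 bases of the transcript of each member match hg38 at 1 place, and the nearest other transcript of the family, MT1H for MT1G, differed by 10 bases.

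SLC30A1, the exporter, was read at a much lower level than MT2A and MT1E. In U87MG it was at 3.83, 4.17, and 4.70 CPM in “Vec” and at 8.57, 5.09, and 7.54 CPM in “WWOX”. In U251MG it was at 2.92, 2.39, and 3.35 CPM in “Vec” and at 6.996, 3.22, and 7.10 CPM in “WWOX”. The “WWOX” libraries of U87MG were all above “Vec”, and those of U251MG were so after scaling, with “WWOX” replicate 2, the library of low WWOX, the lowest of its group. In T98G the values were 2.95, 6.64, and 3.89 CPM in “Vec” and 4.56, 3.19, and 3.57 CPM in “WWOX”. In DBTRG-05MG they were 9.30, 10.3, and 11.5 CPM in “Vec” and 14.3, 13.1, and 8.57 CPM in “WWOX”. The groups of T98G and of DBTRG-05MG overlapped.

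**Figure D2:**
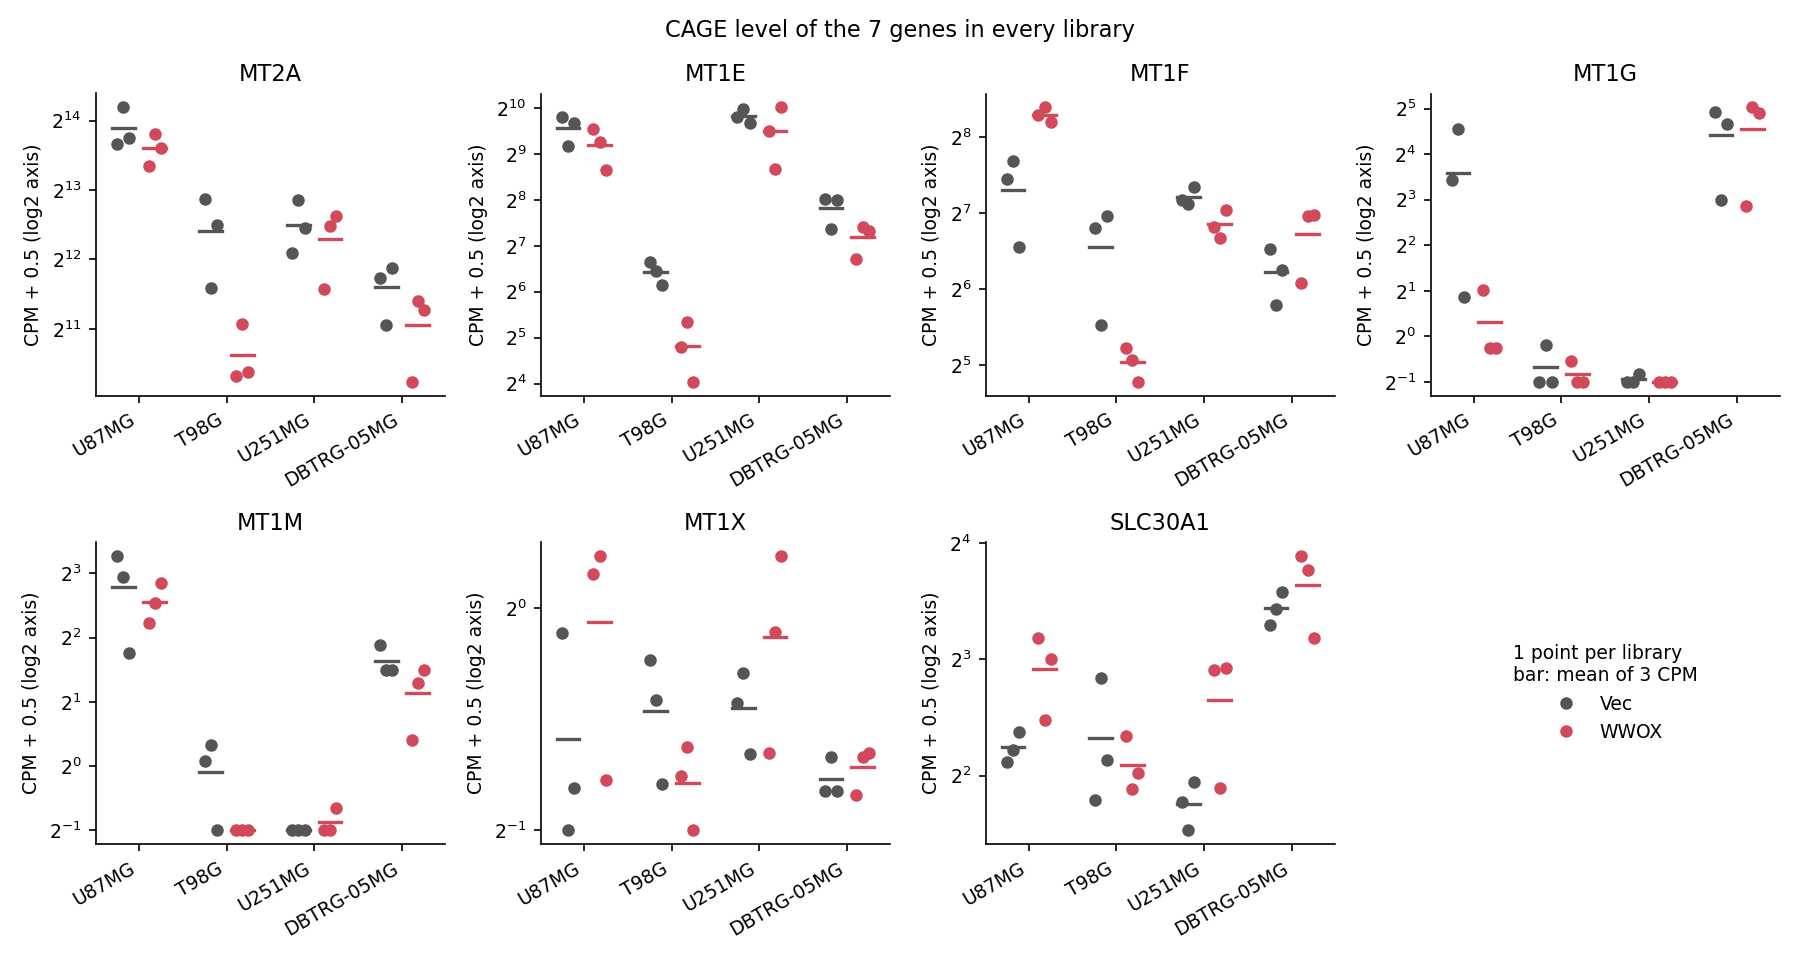
Level of the 7 genes in the 24 libraries as CPM + 0.5 on a log2 axis, with 1 point per library, grey for “Vec” and red for “WWOX”, and a bar at the mean of 3 libraries. MT2A lies at 1205 CPM or more everywhere, MT1G and MT1M are near 0 in T98G and U251MG, and MT1X is near 0 in all lines.

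The question of how the lines differ before any WWOX was added was addressed by comparing the “Vec” groups in pairs, with limma on log2(CPM + 0.5) after TMM scaling. P-values were adjusted by Benjamini-Hochberg over 12327 genes, those that reached 5 CPM in 1 library or more. Of the 7 members, 6 passed this filter and MT1X did not. MT2A in “Vec” was at 15210 ± 3092 CPM (SD, n = 3) in U87MG, 5790 ± 1525 in U251MG, 5440 ± 2231 in T98G, and 3097 ± 852 in DBTRG-05MG. U87MG was higher by 1.58 on the log2 scale than U251MG (SE 0.434, adjusted p = 0.00579), by 1.57 than T98G (adjusted p = 0.00602), and by 2.54 than DBTRG-05MG (adjusted p = 4.98e-05). Without T98G “Vec” replicate 2 the difference of U87MG from T98G was 1.12 (adjusted p = 0.0514). The other 3 lines did not pass the test among themselves. T98G stood 0.01 above U251MG and 0.97 above DBTRG-05MG (adjusted p = 0.9896 and 0.0777), and U251MG 0.96 above DBTRG-05MG (adjusted p = 0.0983). Without T98G “Vec” replicate 2 the second of these differences was 1.42 and passed (adjusted p = 0.0142).

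The order of MT1E was another, with U251MG at 905 ± 99.4 CPM (SD, n = 3) and U87MG at 759 ± 164, which did not pass the test (log2 difference of U87MG from U251MG −0.10, 95% interval −0.75 to 0.54, adjusted p = 0.826). DBTRG-05MG followed at 227 ± 53.1 CPM and T98G at 85.6 ± 14.3. U87MG was higher than DBTRG-05MG by 1.97 (adjusted p = 1.92e-05), and T98G minus DBTRG-05MG was −1.17 (adjusted p = 0.00437). For MT1F the means ran from 157 ± 56.9 CPM in U87MG through 147 ± 12.1 in U251MG and 93.5 ± 41.9 in T98G to 74.1 ± 18.4 in DBTRG-05MG. U87MG and U251MG were higher than DBTRG-05MG by 1.26 and 1.07 (adjusted p = 0.00921 and 0.0334), and no other pair passed. Without U87MG “Vec” replicate 2 the first difference was 1.03 (adjusted p = 0.0535). The second was not past the threshold without the filter on low values (adjusted p = 0.0561), nor without U251MG “Vec” replicate 1 or 3 or DBTRG-05MG “Vec” replicate 2 or 3 (0.91 to 1.06, adjusted p = 0.0762 to 0.122). Without U87MG “Vec” replicate 3 or T98G “Vec” replicate 3, U87MG passed over T98G as well (1.19 and 1.18, adjusted p = 0.0210 and 0.0244), and without T98G “Vec” replicate 2 so did T98G over DBTRG-05MG (0.98, adjusted p = 0.0240).

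MT1G in “Vec” was at 20.8 ± 11.9 CPM in DBTRG-05MG and 11.5 ± 10.8 in U87MG, which did not differ beyond their spread (U87MG minus DBTRG-05MG −1.03, adjusted p = 0.237), although without U87MG “Vec” replicate 2 the difference was −1.84 (adjusted p = 0.0370). MT1G reached 5 CPM in these lines alone, and MT1M in U87MG alone, so both passed the filter through the lines where they were high, and their levels against the other lines are a description. MT1M was at 6.41 ± 3.21 CPM in U87MG and 2.61 ± 0.518 in DBTRG-05MG, and 1 “Vec” library of U87MG lay below the highest of DBTRG-05MG. Against U251MG, where no “Vec” library held a tag of MT1M, U87MG was at least 28.1-fold and DBTRG-05MG at least 11.5-fold higher, taking 3 tags per library as the limit. SLC30A1 was highest in DBTRG-05MG, at 10.4 ± 1.08 CPM, followed by 4.50 ± 1.92 in T98G, 4.24 ± 0.436 in U87MG, and 2.88 ± 0.482 in U251MG. DBTRG-05MG was higher than each other line. The log2 difference from DBTRG-05MG was −0.99 for U87MG (adjusted p = 0.00323), −0.99 for T98G (adjusted p = 0.00378), and −1.63 for U251MG (adjusted p = 2.98e-05). The 3 lower lines did not pass the test among themselves, though U87MG stood 0.64 above U251MG (adjusted p = 0.0541) and passed without any of 5 libraries (adjusted p = 0.0313 to 0.0477). T98G stood 0.64 above U251MG (adjusted p = 0.0601) and passed without T98G “Vec” replicate 1 (0.88, adjusted p = 0.0208) or U251MG “WWOX” replicate 2 (0.65, adjusted p = 0.0450). DBTRG-05MG was lowest in MT2A and MT1F and highest in SLC30A1 by mean.

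Counted over the 4 members that reached 5 CPM in every line, namely MT2A, MT1E, MT1F, and SLC30A1, a set chosen after the values were seen, U87MG was higher than T98G in 2, than U251MG in 1, and than DBTRG-05MG in 3, and lower than DBTRG-05MG in 1, SLC30A1. These pairs called 39.8%, 38.6%, and 44.1% of all genes, 18%, 17.8%, and 19.9% as higher in U87MG and, against DBTRG-05MG, 24.2% as lower. T98G was lower than U251MG in 1 member, MT1E, in a pair that called 32.4% of all genes and 15.5% as lower. It was lower than DBTRG-05MG in 2, in a pair that called 41.2% and 21.5% as lower. U251MG was higher than DBTRG-05MG in 2 members and lower in 1, where 31.6% of all genes were called, 14.6% higher and 17% lower.

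The effect of WWOX was then compared within each line. In T98G, MT1E fell by 1.69 on the log2 scale, which is 3.23-fold (SE 0.311, adjusted p = 0.00584, limma), and was lower in 3 of 3 libraries. In such bulk libraries fewer cells with a transcript and less of it per cell cannot be told apart. MT2A was lower in every “WWOX” library of T98G as well, with a log2FC of −1.73 (SE 0.434, adjusted p = 0.0547), and so was MT1F, with −1.40 (SE 0.375, adjusted p = 0.0758). Neither passed the test. SLC30A1 was at −0.17 with overlapping libraries, and at 0.05 without “Vec” replicate 2. MT1G had 6 tags in 1 “Vec” library, 2 tags in 1 “WWOX” library, and 0 in the others, so that both group means lay under the limit of 3 tags per library and no fold change is given. MT1M had 0 tags in “WWOX”, and its “Vec” mean was at least 1.88-fold above the limit of 3 tags per library. The median log2FC of the 4 members that reached 5 CPM in every line, a set chosen after the values were seen, was −1.55. It was −1.11 over the 6 tested members and −0.04 over all genes tested. The median of the same 4 members was 0.12 in U87MG, −0.31 in U251MG, and −0.27 in DBTRG-05MG. In T98G 1 of the 6 members passed, downward, and 3 did not overlap. Of all genes, 1.14% passed the threshold, 0.803% downward, and the libraries of 16.2% did not overlap.

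The calls in T98G depended on few libraries. Without “Vec” replicate 2, where MT2A and MT1F were lowest, MT1E, MT2A, and MT1F were all lower, by −1.75, −2.17, and −1.93 (adjusted p = 0.00750, 0.00896, and 0.00241), while the genes past the threshold went from 140 to 394. Without “Vec” replicate 1 or “WWOX” replicate 3, MT1E was not past the threshold (adjusted p = 0.0571 and 0.0746), nor was it in a model of T98G alone (adjusted p = 0.211), which called 0 genes. MT2A was past the threshold in 5 of 13 alternatives, with adjusted p between 0.00248 and 0.281 over all of them, and without U251MG “WWOX” replicate 1 or 2 or DBTRG-05MG “WWOX” replicate 1 (adjusted p = 0.0242, 0.0340, and 0.0413). MT1F was past it in 5 of 13.

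In U87MG, MT1G was lower by a log2FC of −2.87 (SE 0.692, adjusted p = 0.0188), though its libraries overlapped. Without “Vec” replicate 2, which held the highest level, the log2FC was −2.06 (adjusted p = 0.182). Leaving out “Vec” replicate 1, “WWOX” replicate 2, or “WWOX” replicate 3 also ended the call (adjusted p = 0.0679, 0.0912, and 0.0842), as did a model of U87MG alone (adjusted p = 0.316) and limma-voom (adjusted p = 0.151). MT1F had a log2FC of 1.00 in U87MG (SE 0.375, adjusted p = 0.212), and SLC30A1 one of 0.60 (SE 0.257, adjusted p = 0.332). Both were above “Vec” in 3 of 3 libraries and did not pass the test, though MT1F passed in 2 of 13 alternatives, those with the correction for GC content and length (1.11, adjusted p = 0.0264, and 0.0436 with the replicate block). MT2A was at −0.35, MT1E at −0.45, and MT1M at −0.18, with overlapping libraries. In this line 1 of the 6 members passed, downward, and 2 did not overlap, where 3.2% of all genes passed the threshold, 1.66% downward, and 17.5% did not overlap.

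In U251MG, none of the 6 members passed the limma test. An unadjusted p under 0.05 was found for 1423 of the 12327 genes tested and for 1 member, SLC30A1. Its log2FC was 0.80 (SE 0.257, adjusted p = 0.198), with all “WWOX” libraries above “Vec”. Without “WWOX” replicate 2, the library of low WWOX, it was 0.94 (adjusted p = 0.0550), and the genes past the threshold went from 39 to 557. MT2A, MT1E, and MT1F were at −0.25, −0.44, and −0.37 with all libraries and at −0.61, −0.31, and −0.52 without that library, none past the threshold. Without “WWOX” replicate 1 instead, MT2A changed sign, to 0.16. In this line 0.316% of all genes passed the threshold and 10.4% did not overlap, compared to 0 and 1 of the members. In DBTRG-05MG, none of the members passed either, and 1 had an unadjusted p under 0.05, as did 941 of the 12327 genes tested. That member was MT1E, with a log2FC of −0.71 (SE 0.311, adjusted p = 0.551) and 3 of 3 libraries lower. MT2A was at −0.65 and MT1F at 0.42, while 1.02% of all genes passed and 19.7% did not overlap, compared to 0 and 1 of the members. On tags recovered from the CPM values, DESeq2, limma-voom, and the quasi-likelihood test of edgeR also called 0 members in either line.

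Averaged over the 4 lines, MT1E fell by 0.83 on the log2 scale (SE 0.156, adjusted p = 0.00441, limma). An exact two-sided permutation of the labels within lines gave p = 0.000188 for MT1E, with 1.25e-05 the smallest that 160000 arrangements allow. The value was negative in all 4 lines, and it was past the threshold in each of 12 alternatives and without each of the 24 libraries, between −0.90 and −0.73. MT2A had a mean log2FC of −0.74 (SE 0.217, adjusted p = 0.0886, exact permutation p = 0.00548), negative in all 4 lines, and did not pass the adjusted test. The sign in U251MG depended on “WWOX” replicate 1, without which MT2A was at 0.16 in that line. The mean of MT2A passed without T98G “Vec” replicate 2 (−0.85, adjusted p = 0.0267) and without U251MG “WWOX” replicate 2 (−0.84, adjusted p = 0.0221). SLC30A1 was at 0.34 (SE 0.129, adjusted p = 0.209, exact permutation p = 0.0254) and MT1F at −0.09 (adjusted p = 0.853, exact permutation p = 0.749). MT1G was at −0.75 (adjusted p = 0.299, exact permutation p = 0.123) and MT1M at −0.37 (adjusted p = 0.351, exact permutation p = 0.0783), both with few or no tags in T98G and U251MG. Both passed the filter through the lines where they were high, so these means are a description. Over the 6 members, adjusted over all genes, 1 was lower and 0 were higher, where 1.78% of all genes passed, 1.02% downward. The permutation p-values were not adjusted for the 6 members, which were chosen with earlier results of these data known. Within 1 line the permutation of 3 against 3 libraries cannot give a p below 0.1.

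**Figure D3:**
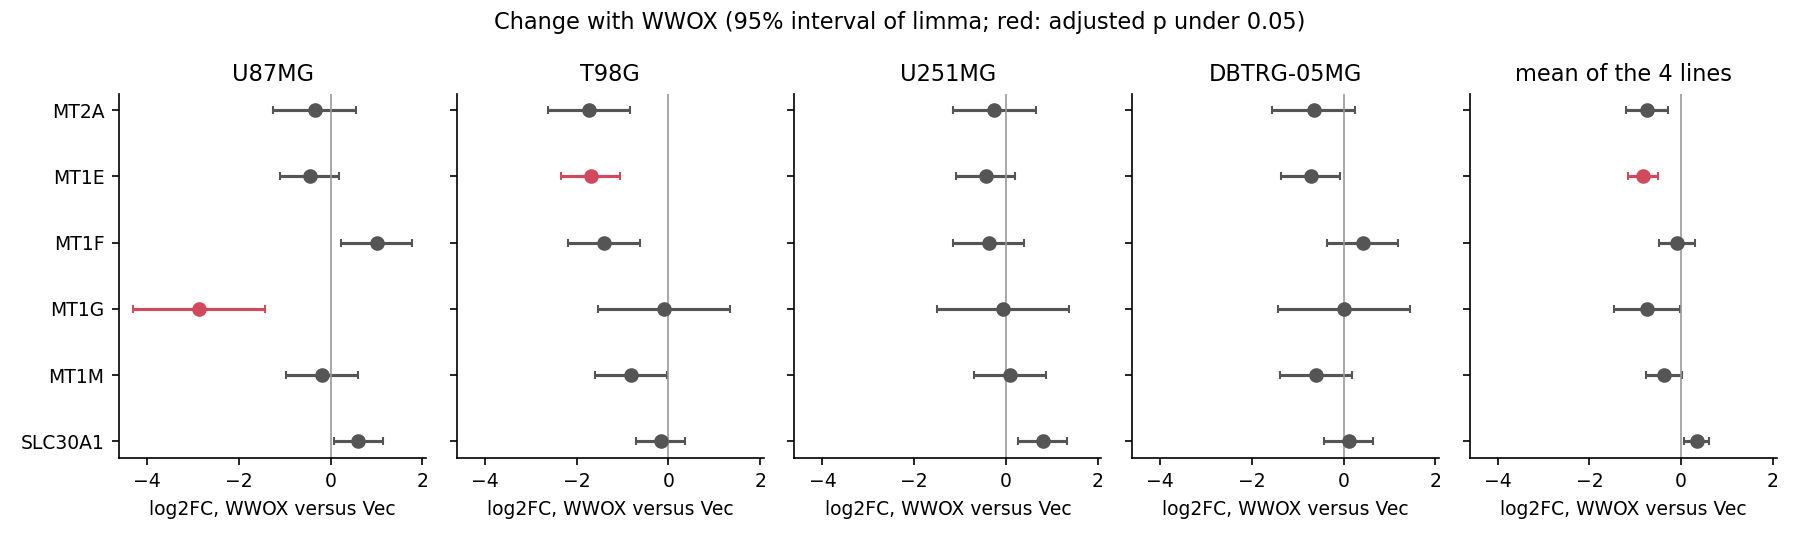
The log2FC of “WWOX” versus “Vec” on the log2(CPM + 0.5) scale for the 6 tested members in each line and as the mean of the 4 lines, with 95% intervals from limma; red points have an adjusted p under 0.05. MT1E lies below 0 in every panel and MT1F lies at 1.00 in U87MG and −1.40 in T98G. The fitted value of MT1M in T98G rests on “WWOX” libraries with 0 tags.

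Whether the lines differ in the response was tested by setting the log2FC of each line against the mean of the other 3. MT1F in T98G lay below the other lines by −1.75 (SE 0.433, adjusted p = 0.0406), 1 of the 6 members, while 1.54% of all genes passed in this comparison, 1.01% downward. In U87MG the difference was 1.46 in the other direction (SE 0.433, adjusted p = 0.0920), past the threshold without T98G “Vec” replicate 2 (1.63, adjusted p = 0.0111), and 2.39% of all genes passed. The T98G call was lost in 4 of 12 alternatives (adjusted p = 0.00278 to 0.111 over the 12) and on leaving out any of 16 of the 24 libraries, while the difference stayed between −2.28 and −1.38 over all 24. The value of MT1E in T98G was not shown to differ from the other lines (−1.16, SE 0.359, adjusted p = 0.130), nor was the value of MT2A (−1.31, SE 0.501, adjusted p = 0.244). The value of MT1G in U87MG missed the threshold too (−2.82, SE 0.799, adjusted p = 0.0699), and passed it without U87MG “Vec” replicate 3 (−3.91, adjusted p = 0.000989) or DBTRG-05MG “WWOX” replicate 1 (−3.06, adjusted p = 0.0249). In T98G and U251MG, which enter that mean, MT1G had 0 tags in 9 of 12 libraries. None of the members passed in U251MG or DBTRG-05MG, where 0.422% and 0.982% of all genes did.

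Ratios within a library do not depend on its total and describe the mix of metallothioneins in it. The log2 ratio of MT1F to MT2A was −6.23, −6.52, and −7.20 in “Vec” and −5.07, −5.43, and −5.41 in “WWOX” of U87MG. In DBTRG-05MG it was −5.22, −5.28, and −5.63 in “Vec” and −4.17, −4.45, and −4.30 in “WWOX”. In both lines every “WWOX” library had more MT1F per MT2A than every “Vec” library. In T98G the means were −5.89 ± 0.305 in “Vec” and −5.58 ± 0.455 in “WWOX” (SD, n = 3), and in U251MG −5.27 ± 0.425 and −5.39 ± 0.559, with overlap in both. The log2 ratio of MT1E to MT2A overlapped between the groups in all 4 lines, and its mean in T98G was −5.91 ± 0.667 in “Vec” and −5.89 ± 0.434 in “WWOX”. No test was run on these ratios, and how often ratios of other genes were apart was not counted. For single genes, 17.5% in U87MG and 19.7% in DBTRG-05MG had groups that did not overlap.

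**Figure D4:**
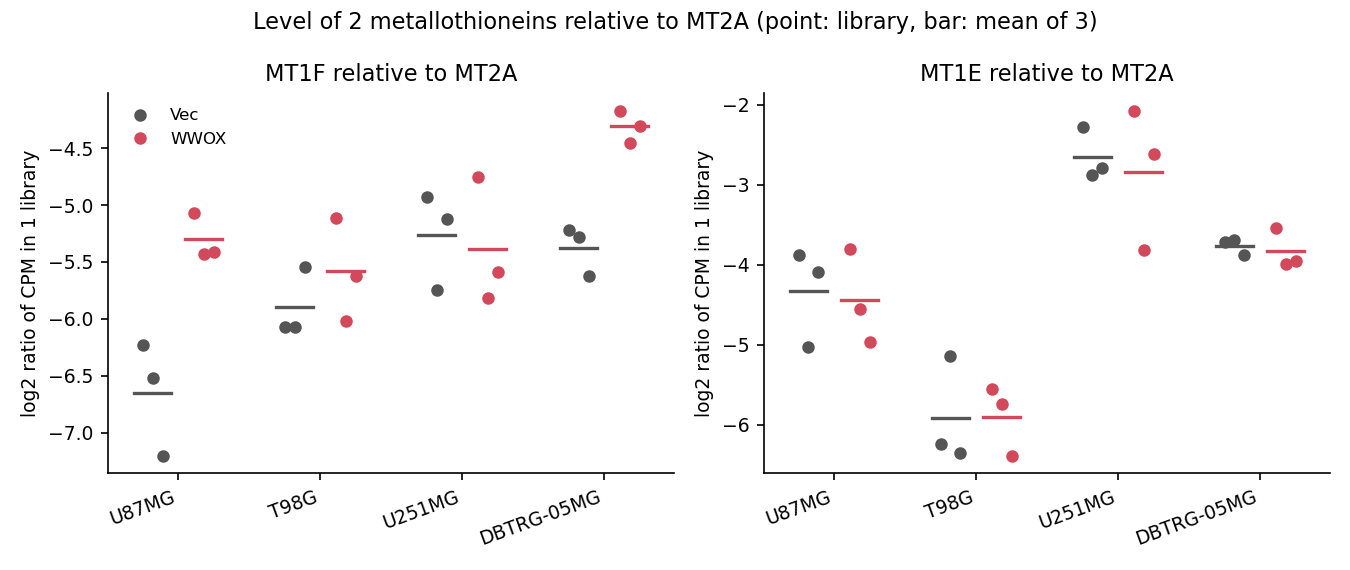
The log2 ratio of MT1F (left) and of MT1E (right) to MT2A in each library, by line, with grey points for “Vec”, red points for “WWOX”, and bars at the mean of 3 libraries. The groups of MT1F are apart in U87MG and DBTRG-05MG, and those of MT1E overlap in every line.

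After each of the 24 libraries was set against the mean of its line, Pearson's r between MT2A and MT1E was 0.74, between MT2A and MT1F 0.63, and between MT1E and MT1F 0.43, and r of MT1G and MT1M with these 3 genes lay between −0.004 and 0.51, while r of SLC30A1 with the metallothioneins lay between −0.37 and −0.02. These values are a description over libraries that share lines, scaling, and the WWOX contrast. By the same measure the genes most like MT2A were CAPG, which caps actin filaments (r = 0.89), the interleukin receptor gene IL17RE (0.88), WDR54 (0.87), the calcium channel subunit gene CACNB3 (0.87), and the cell polarity gene LLGL1 (0.87). Those most like SLC30A1 were the cytokine receptor gene LIFR (0.78), the syndecan gene SDC2 (0.76), the transcription factor gene ZFHX3 (0.76), PARM1 (0.75), and the kinase gene DYRK1A (0.75).

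Of 9 other metallothionein genes, 2 reached the filter. They are MT1L and MT3, named here after their values were seen. MT1L, a pseudogene in the cluster whose first 75 bases can be laid on the transcript of MT1E with 6 differences, was at 72.5 to 195 CPM in U87MG, at 3.73 to 8.91 CPM in DBTRG-05MG, and at most 0.558 CPM in the other lines. How tags that fit both MT1L and MT1E were assigned is not given in the sources used here, so these levels are uncertain where MT1L is present. MT3, the metallothionein enriched in brain, was at 6.82, 21.9, and 9.12 CPM in “Vec” and at 1.65, 2.51, and 2.79 CPM in “WWOX” of U87MG, lower in every library with a log2FC of −2.13 (SE 0.991, adjusted p = 0.399). In U251MG it reached 121 CPM in “WWOX” replicate 2. Neither passed the test in any line.

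Over 9 lists of genes of metal handling, of its inducers, and of neighbours of the cluster with 77 genes, of which 57 were tested in each of the 4 lines, 1 gene was higher and 1 was lower in 228 tests. By line, 3.2%, 1.14%, 0.316%, and 1.02% of all genes passed in U87MG, T98G, U251MG, and DBTRG-05MG, so counts this small in the lists are near those over all genes. The metal sensor MTF1 was at 4.05 to 23.6 CPM, with a log2FC that ran from 0.19 in U251MG to 0.74 in U87MG, and did not pass the test. Of the SLC39 family, which brings zinc into the cytosol, 10 of 14 genes were tested and SLC39A11 rose in DBTRG-05MG. It was at 12.2, 15.3, and 12.1 CPM in “Vec” and at 29.1, 22.5, and 24.4 CPM in “WWOX”, a log2FC of 0.85 (SE 0.194, adjusted p = 0.0292), higher in 3 of 3 libraries. Of 9 other SLC30 transporters, 5 were tested and none passed in any line, with list medians between 0.12 and 0.26. Of 11 genes of copper handling, 9 were tested and the copper chaperone gene ATOX1 fell in DBTRG-05MG. It was at 171, 205, and 181 CPM in “Vec” and at 81.5, 79.8, and 98.4 CPM in “WWOX”, a log2FC of −1.16 (SE 0.257, adjusted p = 0.0235), lower in 3 of 3 libraries.

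Oxidants, heat, and glucocorticoids are known to induce metallothioneins, and lists of other genes that answer to them were set beside the members. All 8 genes of the oxidant and cadmium response were tested, with medians between 0.49 and 0.64 over the lines and none past the threshold. The medians over all genes tested were between −0.04 and 0.00. Of 7 heat shock genes tested, none passed, with medians from −0.01 in DBTRG-05MG to 1.33 in U251MG. Of 9 genes of the glucocorticoid response, 8 were tested and none passed, with a median of −0.68 in T98G and between −0.09 and 0.25 in the other lines. Of the 23 genes of these 3 lists, 4 had groups that did not overlap in U87MG and 10 had such groups in T98G, where 17.5% and 16.2% of all genes did. The counts were 2 for U251MG and 3 for DBTRG-05MG, compared to 10.4% and 19.7% of all genes. Before adjustment, p was under 0.05 for 7, 5, 6, and 2 of the 23, in the same order of lines. In T98G, 6 of the 10 were higher and 4 lower in every “WWOX” library. Among them, named after their values were seen, were HMOX1, which degrades heme, at 0.81 (adjusted p = 0.822), and the kinase gene SGK1 at −1.14 (adjusted p = 0.270), while in U87MG HMOX1 was at 2.77 (SE 0.980, adjusted p = 0.172). Among 9 neighbours of the cluster on 16q, 7 were tested and none passed. The median of chromosome 16 minus that of all genes was 0.01 in T98G, 0.12 in DBTRG-05MG, −0.05 in U87MG, and −0.04 in U251MG. Before adjustment, p was under 0.05 for 941 of the 12327 genes tested in DBTRG-05MG and for 1415 to 1423 in each other line.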

How the data were processed

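CAGE libraries were sequenced for 24 samples, 3 for each of 8 groups. The authors deposited CPM values, tags on a gene scaled to a library total of 1000000, and their processing notes name hg38, STAR, SAMtools, and limma 3.42. How tags that fit several genes were counted is not given in the sources used here. The 24 single-library tables hold the values of the series table. Of the 43037 identifiers, 43033 matched a GENCODE 44 symbol and 4 did not. All values were whole multiples of the value of 1 tag (100% within a relative tolerance of 1e-06), which gave 10756072 to 16953689 tags per library.

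Groups were taken from the labels. CPM values were divided by TMM factors, log2 transformed with a pseudocount of 0.5, filtered at 5 CPM in at least 1 library, and fitted with limma-trend (limma 3.58.1, R 4.3.3) over all 8 groups, with Benjamini-Hochberg adjustment and a threshold of 0.05. Contrasts were “WWOX” versus “Vec” in each line, their mean, each line against the mean of the other 3, and the 6 pairs of “Vec”. On recovered tags, edgeR 4.0.16 (quasi-likelihood) called 328, 113, 14, and 49 genes in U87MG, T98G, U251MG, and DBTRG-05MG, and DESeq2 1.42.0 called 483, 273, 162, and 129, compared to 395, 140, 39, and 126 with limma. The other alternatives were other pseudocounts, filters, and scalings, limma-voom, a model per line, the replicate number as a block, a correction for GC content and transcript length, and leaving out each library. The scripts were tested on simulated data. Figures were drawn with matplotlib 3.10.9.

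The named genes were the 7 members, WWOX, up to 3 genes of each list past the threshold in a line, and the 5 genes most like MT2A and SLC30A1. The members and lists were chosen with earlier results of these data known. Promoter sequences came from RefSeq (GRCh38.p14).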

Additional observations from a re-analysis of the deposited data

Results flagged for a closer look

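MT1F had effects of WWOX that went opposite ways in 2 lines, with every “WWOX” library above every “Vec” library in U87MG (log2FC 1.00) and every one below in T98G (log2FC −1.40). These effects did not pass the adjusted test by themselves with the settings of the report, though that in T98G passed in 5 of 13 alternatives and that in U87MG in 2 of 13, and the difference between the pair of lines was not tested. The effect in T98G differed from the mean of the other 3 lines by −1.75 in the limma fit (SE 0.433, adjusted p = 0.0406), 1 of 24 such differences over the 6 tested members and 4 lines to pass.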

How the results depend on the processing

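Over 13 alternatives, 993 of 1053 member values kept their direction and their side of the threshold, 35 gained a call, 10 lost it, and 15 changed sign. On leaving out 1 library at a time, 2074 of 2160 did, 24 gained a call, 30 lost it, and 32 changed sign. Of the 4 calls on WWOX among the members, the 1 that held in each alternative run and without each library was that of MT1E over the mean of the 4 lines. The cause of the changes was not tested. Where a model for each line is fitted alone there is no mean over lines, and the replicate block could not be fitted for the “Vec” pairs. Replicate numbers showed no steady pairing of the samples. Of 12 pairs of the same number the correlation of their deviations was over 0.1 in 4 and under −0.1 in 7, from −0.546 to 0.510. The 4 over 0.1 were replicates 1 and 2 of U87MG and of T98G. With 3 libraries per group these correlations cannot decide whether the numbers pair samples. Values of MT1M and MT1G against libraries with 0 tags are fitted and are no bound, and calls gained or lost on them are a description. MT1X in all lines, and MT1G and MT1M in T98G and U251MG, had few or no tags, which limits what can be said of them.

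With a pseudocount of 0.1, the genes called were 23 for U251MG and 78 for DBTRG-05MG. MT1M for U87MG versus DBTRG-05MG in “Vec” (1.34) lost the call. MT1M for T98G versus U251MG in “Vec” (1.96) gained a call. Without a filter on low values, the genes called were 618 for U87MG, 271 for T98G, 114 for U251MG, 395 for DBTRG-05MG, 385 for the mean of the lines, 468 for U87MG against the other lines, 289 for T98G against the other lines, 107 for U251MG against the other lines, and 332 for DBTRG-05MG against the other lines. MT1F for T98G against the other lines (−1.75) and MT1F for U251MG versus DBTRG-05MG in “Vec” (1.07) lost the call. With a mean of at least 5 CPM as the filter, the genes called were 198 for U87MG, 74 for T98G, 14 for U251MG, 51 for DBTRG-05MG, 95 for the mean of the lines, 124 for U87MG against the other lines, 105 for T98G against the other lines, 23 for U251MG against the other lines, and 45 for DBTRG-05MG against the other lines. MT1F for T98G against the other lines (−1.75) lost the call. On CPM as deposited, MT1F for T98G (−1.40), MT2A for T98G (−1.73), and MT1F for U87MG against the other lines (1.49) gained a call. MT2A for T98G versus U251MG in “Vec” (−0.15) changed sign. With median of ratios scaling, SLC30A1 for U87MG versus U251MG in “Vec” (0.66) gained a call. SLC30A1 for U87MG versus T98G in “Vec” (0.0288) changed sign. With a model for each line or pair alone, the genes called were 213 for U87MG, 0 for T98G, 3 for U251MG, and 38 for DBTRG-05MG. MT1G for U87MG (−2.87) and MT1E for T98G (−1.69) lost the call. SLC30A1 for U87MG versus U251MG in “Vec” (0.64) gained a call. With the replicate block, the genes called were 63 for T98G, 23 for U251MG, 76 for DBTRG-05MG, 144 for the mean of the lines, 88 for T98G against the other lines, 11 for U251MG against the other lines, and 64 for DBTRG-05MG against the other lines. MT1F for T98G against the other lines (−1.75) lost the call. With edgeR on recovered tags, the genes called were 14 for U251MG, 49 for DBTRG-05MG, 101 for the mean of the lines, 195 for U87MG against the other lines, 102 for T98G against the other lines, 12 for U251MG against the other lines, and 29 for DBTRG-05MG against the other lines. MT1F for T98G (−1.57), MT2A for T98G (−1.81), MT1M for T98G versus U251MG in “Vec” (5.79), SLC30A1 for T98G versus U251MG in “Vec” (0.79), and MT2A for T98G versus DBTRG-05MG in “Vec” (1.08) gained a call. MT1G for U251MG against the other lines (−0.19) and MT1M for DBTRG-05MG against the other lines (0.52) changed sign. With limma-voom, the genes called were 23 for U251MG and 31 for U251MG against the other lines. MT1G for U87MG (−3.44) and MT1F for T98G against the other lines (−1.78) lost the call. MT2A for T98G (−1.73) and MT1M for T98G versus U251MG in “Vec” (3.06) gained a call. MT1G for DBTRG-05MG (−0.0162) changed sign. With DESeq2, the genes called were 273 for T98G, 162 for U251MG, 342 for T98G against the other lines, and 172 for U251MG against the other lines. MT1F for T98G (−1.55), MT1M for T98G (−4.90), MT2A for T98G (−1.79), MT2A for the mean of the lines (−0.71), MT1M for T98G against the other lines (−5.13), SLC30A1 for U87MG versus U251MG in “Vec” (0.75), MT1M for T98G versus U251MG in “Vec” (5.12), SLC30A1 for T98G versus U251MG in “Vec” (0.78), and MT2A for T98G versus DBTRG-05MG in “Vec” (1.06) gained a call. MT1M for DBTRG-05MG against the other lines (0.52) changed sign. With the GC content and length correction, the genes called were 288 for T98G, 147 for U251MG, 394 for the mean of the lines, 384 for T98G against the other lines, and 153 for U251MG against the other lines. MT1M for U87MG versus DBTRG-05MG in “Vec” (0.11) lost the call. MT1F for U87MG (1.11), MT1F for T98G (−1.30), MT2A for T98G (−1.63), MT2A for the mean of the lines (−0.66), MT1F for U87MG against the other lines (1.48), MT1F for U87MG versus T98G in “Vec” (0.85), SLC30A1 for U87MG versus U251MG in “Vec” (0.85), MT1G for U87MG versus DBTRG-05MG in “Vec” (−1.76), MT1F for T98G versus U251MG in “Vec” (−0.91), and SLC30A1 for T98G versus U251MG in “Vec” (0.92) gained a call. MT1G for T98G (0.0661), MT1G for U251MG (0.0338), SLC30A1 for DBTRG-05MG (−0.0117), MT1F for U87MG versus U251MG in “Vec” (−0.0596), MT1G for T98G versus U251MG in “Vec” (−0.0529), and MT2A for T98G versus U251MG in “Vec” (−0.21) changed sign. With that correction and the replicate block, the genes called were 63 for U251MG and 70 for DBTRG-05MG against the other lines. MT1F for U87MG (1.11), MT1F for T98G (−1.30), and MT1F for U87MG against the other lines (1.48) gained a call. MT1G for T98G (0.0661), MT1G for U251MG (0.0338), and SLC30A1 for DBTRG-05MG (−0.0117) changed sign.

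On leaving out each of the 24 libraries in turn, the genes called ran from 253 to 491 for U87MG, from 45 to 394 for T98G, from 13 to 557 for U251MG, from 74 to 149 for DBTRG-05MG, from 156 to 849 for the mean of the lines, from 66 to 378 for T98G against the other lines, and from 11 to 182 for U251MG against the other lines. The log2 value of MT1E ran from −2.00 to −1.33 for T98G, from −0.0197 to 0.41 for DBTRG-05MG against the other lines, and from −0.21 to 0.091 for U87MG versus U251MG in “Vec”. The log2 value of MT1F ran from −1.93 to −1.05 for T98G, from 1.07 to 1.71 for U87MG against the other lines, from −2.28 to −1.38 for T98G against the other lines, from 0.28 to 1.19 for U87MG versus T98G in “Vec”, from −0.0299 to 0.58 for U87MG versus U251MG in “Vec”, from 1.03 to 1.64 for U87MG versus DBTRG-05MG in “Vec”, from 0.11 to 0.98 for T98G versus DBTRG-05MG in “Vec”, and from 0.91 to 1.25 for U251MG versus DBTRG-05MG in “Vec”. The log2 value of MT1G ran from −3.96 to −2.06 for U87MG, from −0.26 to 0.17 for T98G, from −0.55 to 0.75 for DBTRG-05MG, from −3.91 to −2.01 for U87MG against the other lines, from −1.84 to 0.0558 for U87MG versus DBTRG-05MG in “Vec”, and from −0.0595 to 0.34 for T98G versus U251MG in “Vec”. The log2 value of MT1M ran from −0.69 to 0.13 for U87MG, from −0.25 to 0.57 for U87MG against the other lines, from −0.55 to 0.0525 for DBTRG-05MG against the other lines, from 0.93 to 1.73 for U87MG versus DBTRG-05MG in “Vec”, and from 0.57 to 1.23 for T98G versus U251MG in “Vec”. The log2 value of MT2A ran from −2.17 to −1.45 for T98G, from −0.61 to 0.16 for U251MG, from −0.85 to −0.64 for the mean of the lines, from −0.0832 to 0.53 for DBTRG-05MG against the other lines, from 1.12 to 1.84 for U87MG versus T98G in “Vec”, from −0.27 to 0.46 for T98G versus U251MG in “Vec”, and from 0.69 to 1.42 for T98G versus DBTRG-05MG in “Vec”. The log2 value of SLC30A1 ran from −0.40 to 0.053 for T98G, from −0.24 to 0.22 for U87MG versus T98G in “Vec”, from 0.49 to 0.75 for U87MG versus U251MG in “Vec”, and from 0.42 to 0.88 for T98G versus U251MG in “Vec”.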
